A study of Arabidopsis thaliana with 4 samples.

Results

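The 10 genes described here encode C2H2 zinc finger proteins of the stress-responsive ZAT and AZF group, and their transcripts were followed in abscission zone cells of Arabidopsis thaliana. They were taken from a list of locus identifiers. The list holds no measured value, but it was chosen with earlier results of these data known. The genes are ZAT5 (AT2G28200), ZAT6 (AT5G04340), ZAT7 (AT3G46090), ZAT8 (AT3G46080), STZ (AT1G27730, also ZAT10), ZAT11 (AT2G37430), RHL41 (AT5G59820, also ZAT12), ZAT18 (AT3G53600), AZF1 (AT5G67450) and AZF2 (AT3G19580). All 10 were among the 33602 genes of the count files, and all 10 passed the filter on low counts that left 18384 genes to test. Polyadenylated RNA was sequenced from sorted protoplasts of the ebp1 mutant in the Col-0 background. Residuum cells (RECs), the abscission zone cells of the receptacle, gave 2 libraries, and secession cells (SECs), those of the separated floral organs, gave 2. Cells of both kinds carried the reporter proQRT2::nlsGFP-GUS and were sorted on its nuclear fluorescence. The QRT2 promoter is active in abscission zone cells. The labels give the tissue of each sort, and how tissue of either side was collected is not stated in them. All 4 libraries carry ebp1 and the reporter and went through protoplasting and sorting, and no wild-type or unsorted library was compared. The data therefore show differences between the sides of the break in the mutant and not what the mutation or the sorting changes.

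Proteins of this group carry a pair of zinc fingers that bind DNA and an EAR motif near the C terminus that recruits co-repressors of the TOPLESS family. Most act as repressors of transcription. Their genes are known for fast and short-lived induction by salt, drought, cold, wounding, reactive oxygen and microbial signals in Arabidopsis leaves and roots. Several of the proteins are substrates of MAP kinases, which also carry the signal of the abscission receptors.

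The 10 genes share a simple structure in the RefSeq annotation of TAIR10.1. Each has 1 exon, none is overlapped by a gene on the opposite strand, and transcripts run from 786 nt (ZAT8) to 1431 nt (ZAT5), against a median of 1748 nt over tested genes. Because the genes have no intron, reads from unspliced RNA or from DNA cannot be told from those of messenger RNA. The upstream sequence of the 4 genes that passed the test and of RHL41, the most abundant member, is shown because these promoters share a short element. Each is the 250 bases before the annotated start of the transcript, 5′ to 3′ on the gene's strand, in TAIR10.1. The capitals mark TTGAC, the core of the W-box that WRKY factors bind, or its complement GTCAA. ZAT11 lies at chr2:15706035-15706284 on the plus strand, ZAT18 at chr3:19875125-19875374 on the plus strand, ZAT8 at chr3:16923300-16923549 on the minus strand, AZF2 at chr3:6804297-6804546 on the minus strand and RHL41 at chr5:24102564-24102813 on the plus strand.
ZAT11: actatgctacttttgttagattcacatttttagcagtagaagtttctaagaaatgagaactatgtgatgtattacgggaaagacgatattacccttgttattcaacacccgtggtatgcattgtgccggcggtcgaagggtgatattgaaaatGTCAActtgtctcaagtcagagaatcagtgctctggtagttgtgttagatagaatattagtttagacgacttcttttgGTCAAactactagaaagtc
ZAT18: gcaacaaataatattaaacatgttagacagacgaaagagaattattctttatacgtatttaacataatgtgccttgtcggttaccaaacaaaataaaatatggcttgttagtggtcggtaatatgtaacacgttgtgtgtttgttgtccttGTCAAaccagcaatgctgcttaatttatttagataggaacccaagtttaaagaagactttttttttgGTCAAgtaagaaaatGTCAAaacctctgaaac
ZAT8: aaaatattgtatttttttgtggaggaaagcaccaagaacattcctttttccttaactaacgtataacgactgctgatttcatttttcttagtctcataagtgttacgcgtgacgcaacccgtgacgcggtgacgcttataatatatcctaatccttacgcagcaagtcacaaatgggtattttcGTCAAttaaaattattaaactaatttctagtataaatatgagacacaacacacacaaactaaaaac
AZF2: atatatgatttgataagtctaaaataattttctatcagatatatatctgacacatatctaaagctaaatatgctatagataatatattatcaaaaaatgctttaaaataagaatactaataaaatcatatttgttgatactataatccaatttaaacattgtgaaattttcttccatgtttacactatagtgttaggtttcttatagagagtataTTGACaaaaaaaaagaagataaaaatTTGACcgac
RHL41: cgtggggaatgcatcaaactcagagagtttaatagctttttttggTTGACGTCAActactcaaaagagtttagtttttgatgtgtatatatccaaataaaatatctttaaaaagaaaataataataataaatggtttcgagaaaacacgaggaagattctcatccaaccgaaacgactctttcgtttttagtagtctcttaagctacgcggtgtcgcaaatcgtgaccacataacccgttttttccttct

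The TTGAC core, searched on both strands, was present in 9 of the 10 member promoters, against 44.9% of the 27443 promoters of nuclear protein-coding genes cut in the same way. ZAT18 held 3 copies, and ZAT11, AZF2, RHL41 and ZAT7 held 2 each. In RHL41 a copy on each strand stood side by side without overlap, and in AZF2 the last base of the copy nearest the gene is also the first of a CCGAC. ZAT6 was the member with no copy in this window. The element was therefore present in genes of the group that differed between the cell types and in genes that did not pass the test. Of other stress elements, CCGAC, the core bound by cold and drought factors, was in 4 of 10 members against 12% of all promoters. ACGTG, the core of the abscisic acid element, was in 2 of 10 against 22.9%, and CGCGTT, the rapid stress response element, in 0 of 10 against 2.59%. TATAAA was in 4 of 10 against 47.3%. These matches describe letters in a window and do not show that a factor binds there.

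ZAT7 and ZAT8 are neighbours on chromosome 3 and the most alike pair, with 93.6% of 486 aligned coding bases the same. A stretch of 90 coding bases is shown for both because it is their most similar stretch, and the capitals mark the 4 bases that differ. It lies at chr3:16926607-16926696 on the minus strand in ZAT7 and at chr3:16923053-16923142 on the minus strand in ZAT8.
ZAT7: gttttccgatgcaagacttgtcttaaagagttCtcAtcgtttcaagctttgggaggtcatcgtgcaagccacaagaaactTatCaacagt
ZAT8: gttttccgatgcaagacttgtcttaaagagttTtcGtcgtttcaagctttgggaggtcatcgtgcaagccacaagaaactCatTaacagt
The longest exact match between their coding sequences was 44 nt, and no window of 50 nt of any member transcript was found elsewhere in the genome. Reads that align in more than one place are not in the gene counts, and the read length is not stated in the labels. The split of reads between ZAT7 and ZAT8 is uncertain for reads shorter than these matches or read with errors.

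Gene counts per library ran from 12191718 to 16102115. Levels are CPM, counts scaled by TMM to libraries of one common size, given in the order replicate 1, replicate 2, and a log2 fold change is REC minus SEC with its standard error (SE). A library with 0 counts of a gene allows up to 3, or between 0.193 and 0.236 CPM, by counting error only. The labels do not tie replicates to separate plants, and the p-values rest on a spread between libraries that may be technical. The SEC libraries differed more from each other than the REC libraries did, with a median absolute log2 ratio of 0.57 over tested genes against 0.17. As in any bulk sample, fewer cells with a transcript and less of it per cell cannot be told apart. QRT2, the gene whose promoter drove the reporter, stood at 493 and 568 CPM in the REC pair versus 459 and 694 CPM in the SEC pair.

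By edgeR at an adjusted p under 0.05, 4 of the 10 genes were higher in SECs, ZAT11, ZAT8, ZAT18 and AZF2, and 0 were higher in RECs. Over all tested genes 2.18% were called higher in SECs and 0.495% higher in RECs, or 2.67% in either direction. The members were chosen with earlier results of these data known, so such shares are a description only. At an unadjusted p under 0.05, 7 members were higher in SECs (14.1% of tested genes) and 0 in RECs (9.46%). DESeq2 called 7 higher in SECs (7.69% of its genes) and 0 in RECs (3.66%). Limma voom called 2, ZAT18 and AZF2, both higher in SECs (1.75% of genes, and 2.24% in either direction), and 0 in RECs. A negative log2 fold change was fitted for 9 members, with ZAT5 the exception, and the median over the 10 was −1.16 against 0.02 over all tested genes. In 8 members both SEC libraries lay above both REC libraries, as in 28.2% of tested genes. In ZAT5 both REC libraries lay above both SEC libraries, as in 29.8% of tested genes, and in STZ the groups overlapped. Summed over the 10 genes, the level was 863 and 822 CPM in the REC pair versus 1913 and 1486 CPM in the SEC pair.

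**Figure D1:**
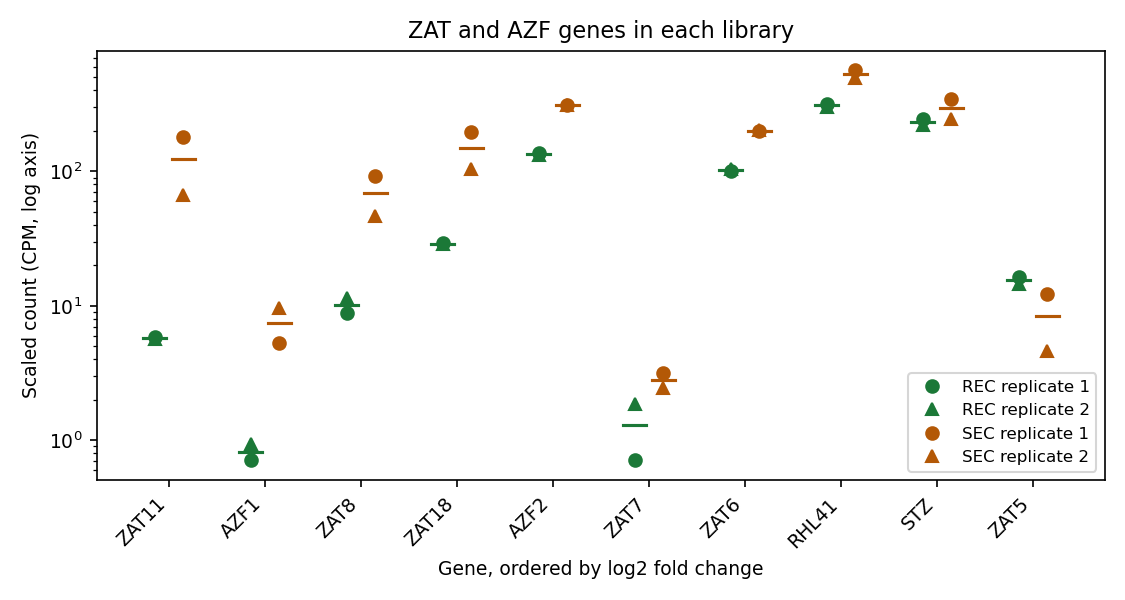
Scaled counts (CPM, log axis) of the 10 genes in each library, with circles for replicate 1, triangles for replicate 2 and a line at each group's mean (n = 2). ZAT11 lies at 5.81 and 5.67 CPM in RECs and far above at 182 and 66.2 CPM in SECs, while the STZ points of the groups overlap.

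ZAT11, whose product acts in the response to hydrogen peroxide and nickel, had the largest difference of the group. It had 74 and 85 counts in the REC pair versus 2352 and 1031 in the SEC pair, or 5.81 and 5.67 CPM versus 182 and 66.2 CPM. Both SEC libraries were far above both REC libraries, and the SEC libraries themselves stood apart by 2.74-fold. ZAT11 was 21.5-fold higher in SECs (log2 fold change −4.43 with SE 0.56 and adjusted p = 0.0354 by edgeR). When SEC replicate 1 was left out, the log2 fold change was −3.53, still past the threshold, and by limma voom the gene just missed it (adjusted p = 0.0501).

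ZAT18 and ZAT8 also had SEC replicate 1 highest, SEC replicate 2 next and both REC libraries lowest, at lower amplitude. ZAT18, which acts in drought tolerance, had 29.4 and 28.6 CPM in the REC pair versus 196 and 103 CPM in the SEC pair. It was 5.16-fold higher in SECs (log2 fold change −2.37 with SE 0.36 and adjusted p = 0.0431). ZAT8, the neighbour of ZAT7, had 8.87 and 11.3 CPM in the REC pair versus 92.8 and 46.2 CPM in the SEC pair. For both genes the groups were well separated, and SEC replicate 1 was about as far above SEC replicate 2 in each. ZAT8 was 6.86-fold higher in SECs (log2 fold change −2.78 with SE 0.42 and adjusted p = 0.0430). Without SEC replicate 1 ZAT8 was at −2.19 and ZAT18 at −1.84, both past the threshold. Leaving out REC replicate 1, so that the SEC pair alone sets the spread, ended both calls (adjusted p = 0.128 for ZAT8 and 0.125 for ZAT18), and so did upper-quartile scaling (0.0510 and 0.0522). ZAT8 also lost it by limma voom (0.0533).

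AZF2, a repressor induced by abscisic acid and osmotic stress that restrains growth, differed less but with little spread. It had 136 and 131 CPM in the REC pair versus 311 and 312 CPM in the SEC pair. Libraries of a group lay almost on top of each other, and AZF2 was 2.33-fold higher in SECs (log2 fold change −1.22 with SE 0.17 and adjusted p = 0.0384). Its fold hardly moved with the library left out, from −1.18 to −1.22. Leaving out REC replicate 1 ended the call (adjusted p = 0.483), as did leaving out REC replicate 2 (0.464) or scaling by the upper quartile (0.0510). AZF1, a repressor with a like role in osmotic stress, was scarce. It had 9 and 14 counts in the REC pair versus 68 and 150 in the SEC pair, or 0.707 and 0.934 CPM versus 5.25 and 9.63 CPM. Here SEC replicate 2 was the higher one, the reverse of ZAT11, ZAT18 and ZAT8. The log2 fold change of AZF1 was −3.16 (SE 0.58) and did not pass the threshold (adjusted p = 0.0573), although it did by DESeq2 (0.00141).

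**Figure D2:**
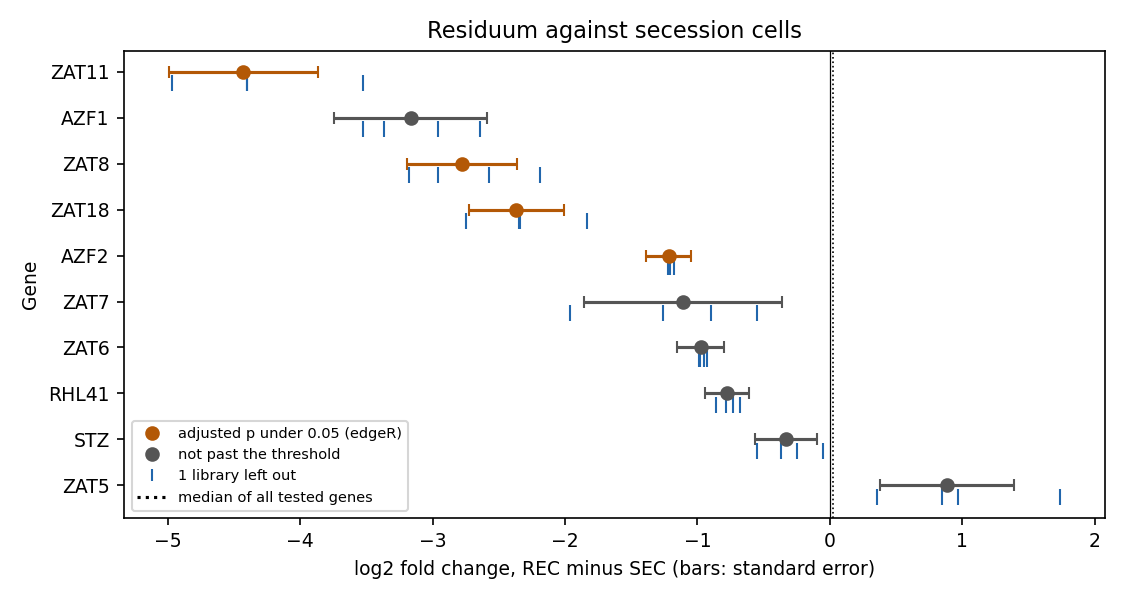
Log2 fold change of each gene, REC minus SEC, with the standard error as a bar, orange where the adjusted p of edgeR is under 0.05, and blue ticks for the fits that leave out 1 library each. Genes to the left of 0 are higher in SECs; ZAT11 at −4.43 lies farthest left, ZAT5 at 0.88 is the one gene to the right, and AZF2 has the ticks closest together.

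RHL41 and ZAT6 had values of modest size with little spread that missed the threshold. RHL41, which is induced by high light and hydrogen peroxide and is needed for expression of a cytosolic ascorbate peroxidase under oxidative stress, had 318 and 302 CPM in the REC pair versus 565 and 497 CPM in the SEC pair. Its log2 fold change was −0.78 (with SE 0.17 and adjusted p = 0.0755 by edgeR), and it passed by DESeq2 (0.0202). ZAT6, which acts in phosphate and cadmium responses, had 101 and 103 CPM in the REC pair versus 199 and 202 CPM in the SEC pair. In both genes the groups did not overlap. The log2 fold change of ZAT6 was −0.98 (with SE 0.18 and adjusted p = 0.0577 by edgeR), and it passed by DESeq2 (0.00288). Once each library's trend with transcript length was taken out, both passed (adjusted p = 0.0466 for RHL41 and 0.0238 for ZAT6), as did AZF1 (0.0300). That fit called 9.27% of its genes higher in SECs. RHL41, ZAT6 and AZF1 did not pass by limma voom (adjusted p = 0.0804, 0.0606 and 0.121) or with upper-quartile scaling (0.0976, 0.0735 and 0.0636). With the replicate block ZAT6 (0.0417) and AZF1 (0.0129) passed and RHL41 (0.0594) did not.

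STZ, a salt-induced repressor and the second most abundant member, was not separated by side. It had 247 and 222 CPM in the REC pair versus 346 and 243 CPM in the SEC pair, so SEC replicate 2 lay within the REC range. The log2 fold change was −0.33 (with SE 0.23 and adjusted p = 0.448). Leaving out SEC replicate 1 gave −0.05, and leaving out SEC replicate 2 gave −0.55, which passed with a spread set by RECs only. ZAT5 was the one gene with higher values in RECs, at 16.3 and 14.6 CPM (REC pair) versus 12.2 and 4.62 CPM (SEC pair). It did not pass (log2 fold change 0.88 with SE 0.51 and adjusted p = 0.361), and its value depended on the SEC library kept, 1.74 and past the threshold without replicate 1 and 0.35 without replicate 2. ZAT7, which acts in salt tolerance, was near the limit of detection, with 9 and 28 counts in the REC pair versus 41 and 38 in the SEC pair. Its log2 fold change of −1.11 (with SE 0.75 and adjusted p = 0.431) became −1.96 without REC replicate 2 and −0.55 without REC replicate 1. Depth limits what can be said of ZAT7 and AZF1.

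Levels were compared between genes as CPM per kb of transcript. In RECs the order was RHL41 at 316 ± 11.6 (SD, n = 2), STZ at 179.9 ± 13.4, AZF2 at 96 ± 2.53, ZAT6 at 78.3 ± 1.45 and ZAT18 at 36.1 ± 0.65. Then came ZAT8 at 12.9 ± 2.22, ZAT5 at 10.8 ± 0.849, ZAT11 at 6.11 ± 0.104, ZAT7 at 1.28 ± 0.819 and AZF1 at 0.58 ± 0.114. Ranges of neighbouring genes in RECs were separate except for ZAT8 and ZAT5, where the lowest value of ZAT8 was 11.3 and the highest of ZAT5 was 11.4. In SECs RHL41 was again first at 541 ± 49.5, followed by STZ at 226 ± 56 and AZF2 at 223 ± 0.511. ZAT18 at 187 ± 81.6, ZAT6 at 154 ± 1.52, ZAT11 at 132 ± 86.8 and ZAT8 at 88.4 ± 41.9 came next, and from STZ to ZAT8 the ranges of all neighbours overlapped. ZAT5 at 5.88 ± 3.74, AZF1 at 5.26 ± 2.19 and ZAT7 at 2.79 ± 0.512 stood last, with overlap between ZAT5 and AZF1 but not between AZF1 and ZAT7. ZAT11 thus stood eighth of the group in RECs and sixth in SECs. Against all 18346 tested genes with a known length, the ZAT11 level per kb lay above 39.8% of genes in RECs and 94.4% in SECs, while RHL41 lay above 98.6% and 99.3%.

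The members' shares of the family's summed level describe its mix on each side. RHL41, STZ, AZF2 and ZAT6 together made up 92.8% and 92.3% of the summed CPM of the 10 genes in RECs but 74.3% and 84.4% in SECs. ZAT11 took 0.673% and 0.69% in RECs and 9.49% and 4.45% in SECs. STZ took 28.6% and 27% in RECs and 18.1% and 16.4% in SECs. These shares repeat the levels above and were not tested.

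Transcript length moved with the spread within the SEC pair. SEC replicate 1 was high in short transcripts: across the tested genes with a length, Spearman's rho between transcript length and the library's deviation from the mean was −0.44 in SEC replicate 1 and between 0.17 and 0.28 in the other libraries. Genes are not independent replicates, so this is a description. SEC replicate 1 was above SEC replicate 2 in 7 of the 10 members. The share was 78.3% of tested genes with a transcript under 1500 nt and a count in both SEC libraries. The log2 ratio within the SEC pair, replicate 1 over replicate 2, was 1.46 for ZAT11, 1.40 for ZAT5, 1.01 for ZAT8 and 0.92 for ZAT18, and −0.005 for AZF2, −0.02 for ZAT6 and −0.88 for AZF1. With the length trend removed ZAT11 was at −4.14, ZAT8 at −2.46, ZAT18 at −2.07 and AZF2 at −1.15, all past the threshold. In that fit 7 members were called higher in SECs, against 9.27% of the genes tested in it.

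**Figure D3:**
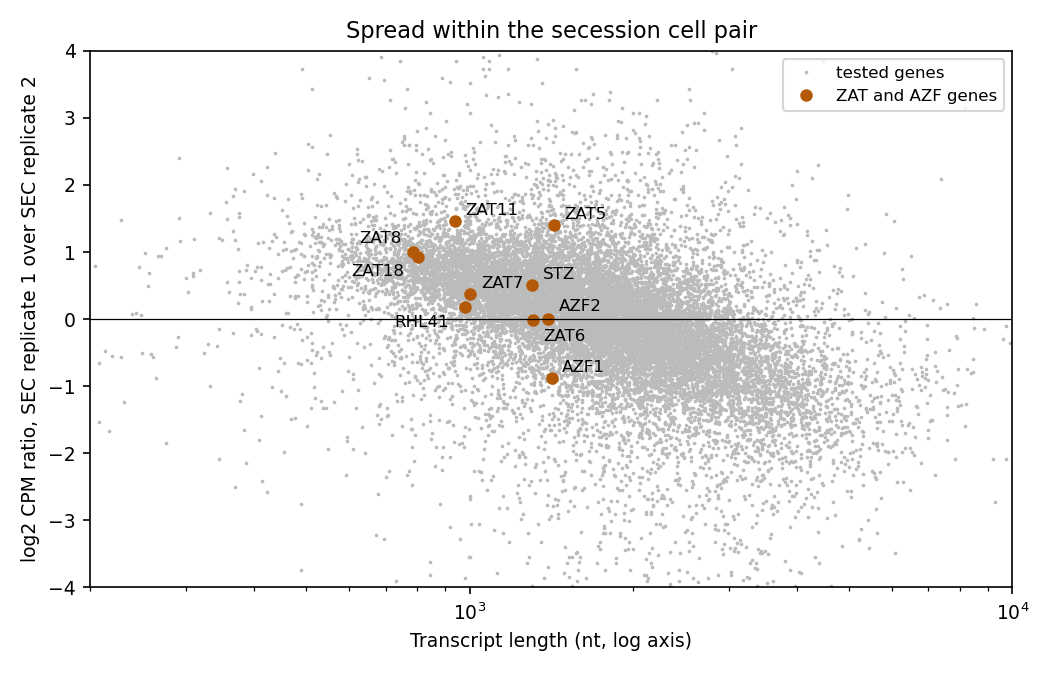
Log2 ratio within the SEC pair (replicate 1 over replicate 2) against transcript length (log axis) for 17420 tested genes in grey and the 10 ZAT and AZF genes in orange. The 132 genes beyond 4 on the vertical axis are not drawn. Tested genes with 0 counts in a SEC library or without a known length are also left out. Short transcripts sit above 0, and the members spread from −0.88 for AZF1 to 1.46 for ZAT11.

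Genes around the family were counted from lists of known upstream kinases, partners and stress responses. Of 8 other C2H2 genes of the same subclass, 4 could be tested and 0 passed by edgeR, with a median log2 fold change of −1.28. DESeq2 called 1 and limma voom 0. At an unadjusted p under 0.05 by edgeR, 1 was higher in SECs (14.1% of tested genes), AT2G28710. It had 3.06 and 2.34 CPM in the REC pair versus 13.8 and 7.83 CPM in the SEC pair (adjusted p = 0.0829 by edgeR). AT2G45120, the next by p, had 0.942 and 1.2 CPM (REC pair) versus 6.56 and 1.35 CPM (SEC pair), and its log2 fold change of −1.87 became −0.32 without SEC replicate 1. AT2G28710 passed with the length trend removed (adjusted p = 0.0358). Low counts kept the rest of that list out of the test, and 3 of its genes had 0 counts in every library.

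Of 10 genes for co-repressor proteins that bind EAR motifs or work with them, 0 passed by edgeR, DESeq2 or limma voom, and 0 had an unadjusted p under 0.05 by edgeR. TPL, the TOPLESS gene, had 191 and 188 CPM in the REC pair versus 97.9 and 268 CPM in the SEC pair, so both SEC libraries lay outside the REC range on opposite sides. The 2 with the smallest p, TPR3 and TPR2, had log2 fold changes of −0.77 and 0.65 (adjusted p = 0.22 and 0.419 by edgeR). Both depended on the SEC library kept: TPR3 was at −1.08 and past the threshold without SEC replicate 1 and at −0.35 without SEC replicate 2, and TPR2 was at 0.16 and at 1.40, the latter past the threshold. With the length trend removed TPR3 passed (log2 fold change −1.04, adjusted p = 0.0233). The median of the list was −0.08. Of 9 upstream genes of MAP kinase cascades, 0 passed by edgeR, DESeq2 or limma voom, and the median was −0.33. At an unadjusted p under 0.05 by edgeR, 2 were higher in SECs, against 14.1% of tested genes. They were MKK5 at 29.1 and 29.5 CPM (REC pair) versus 54 and 51.3 CPM (SEC pair), a log2 fold change of −0.85 with adjusted p = 0.0966 by edgeR, and MKK9 at 39.7 and 35.9 CPM (REC pair) versus 86.2 and 56.2 CPM (SEC pair), a log2 fold change of −0.91 with adjusted p = 0.136. MKK5 passed with the length trend removed (adjusted p = 0.0366), and MKK9 was at −0.57 without SEC replicate 1.

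Genes of the abscisic acid and osmotic response had more calls. Of 20 tested, 4 were higher in SECs (2.18% of tested genes), 0 were higher in RECs (0.495%) and 16 did not pass. The median log2 fold change was −0.62. DESeq2 called 5 (7.69% of its genes) and limma voom 4 (1.75%), in the same direction. At an unadjusted p under 0.05 by edgeR, 9 were higher in SECs and 2 in RECs (14.1% and 9.46% of tested genes). The 2 in RECs were NCED3 and HAI1, at log2 fold changes of 0.99 and 0.66. ERD7, induced by dehydration, had 517 and 509 CPM in the REC pair versus 1217 and 1431 CPM in the SEC pair (log2 fold change −1.37 with SE 0.16 and adjusted p = 0.0322 by edgeR). KIN2 and COR15A, which belong to the cold response, were 3.93-fold and 5.55-fold higher in SECs. RD29A, a widely used marker of drought and cold signals, was 5.73-fold higher, at 57 and 89.3 CPM in the SEC pair versus 15.5 and 10.08 CPM in the REC pair. KIN2 shares a close copy with KIN1, so its reads are uncertain. Calls for ERD7, KIN2, COR15A and RD29A were lost without REC replicate 1 (adjusted p from 0.0767 to 0.18) and without REC replicate 2 (0.0698 to 0.134).

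Of 28 tested rapid stress response genes, WRKY33 was higher in SECs (2.18% of tested genes), 0 were higher in RECs and 27 did not pass. The median log2 fold change was −0.98. DESeq2 called 11 higher in SECs (7.69% of its genes) and 1 higher in RECs (3.66%), and limma voom called 1. WRKY33, a W-box binding factor of defence, had 320 and 369 CPM in the REC pair versus 712 and 679 CPM in the SEC pair (log2 fold change −1.01 with SE 0.17 and adjusted p = 0.0499 by edgeR). Leaving out REC replicate 1 ended this call (adjusted p = 0.608), as did leaving out REC replicate 2 (0.348) or scaling by the upper quartile (0.0633). A negative log2 fold change was fitted for 22 of the 28, against 48.5% of all tested genes. At an unadjusted p under 0.05 by edgeR, 13 were higher in SECs and 2 in RECs (14.1% and 9.46% of tested genes). Values of the list ran from −3.01 to 1.05. Most of these genes, known to be induced together with ZAT genes in leaves, thus lay toward SECs, and some toward RECs.

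Of 15 wound and jasmonate genes, 0 passed by edgeR and limma voom and DESeq2 called 2 in each direction, with a median of −0.03. Of all its genes DESeq2 called 7.69% higher in SECs and 3.66% higher in RECs. At an unadjusted p under 0.05 by edgeR, 4 of the list were higher in SECs and 2 in RECs (14.1% and 9.46% of tested genes). JAZ6 and JAZ8, which encode repressors of jasmonate signalling, had the smallest p, at −0.74 and −1.79 (adjusted p = 0.105 and 0.112 by edgeR). JAZ8 depended on the SEC library kept, at −0.91 without SEC replicate 1 and −2.32 without SEC replicate 2, and both genes passed with the length trend removed (adjusted p = 0.0263 for JAZ6 and 0.0358 for JAZ8). Of 19 antioxidant enzyme genes, 0 passed by edgeR and limma voom and DESeq2 called 1 in each direction, with a median of −0.02. At an unadjusted p under 0.05, 2 were higher in SECs and 3 in RECs (14.1% and 9.46% of tested genes). They were led by DHAR2 at −1.35 and TAPX at 0.88 (adjusted p = 0.0936 and 0.0968 by edgeR). Both passed with the length trend removed (adjusted p = 0.0217 and 0.0475), and DHAR2 was at −0.84 without SEC replicate 1. APX1, the ascorbate peroxidase gene tied to RHL41, had 682 and 669 CPM in the REC pair versus 676 and 706 CPM in the SEC pair. Of 4 genes for glutathione and phytochelatin synthesis, tied to ZAT6 in cadmium tolerance, 0 passed by edgeR and limma voom, DESeq2 called 1, and 1 had an unadjusted p under 0.05. PCS1 had 319 and 349 CPM in the REC pair versus 541 and 670 CPM in the SEC pair (log2 fold change −0.86, adjusted p = 0.0755 by edgeR), and PCS2 had a log2 fold change of −0.48 (adjusted p = 0.24). With the length trend removed PCS1 passed (adjusted p = 0.00979). The auxin-induced SAUR genes, some of which AZF1 and AZF2 are known to repress, were mostly too low to test: of 16 with that symbol in the reference, 3 were tested and 0 passed by edgeR or limma voom. DESeq2 called 1 of them (7.69% of its genes) and 2 had an unadjusted p under 0.05 by edgeR (14.1% of tested genes), all higher in SECs.

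**Figure D4:**
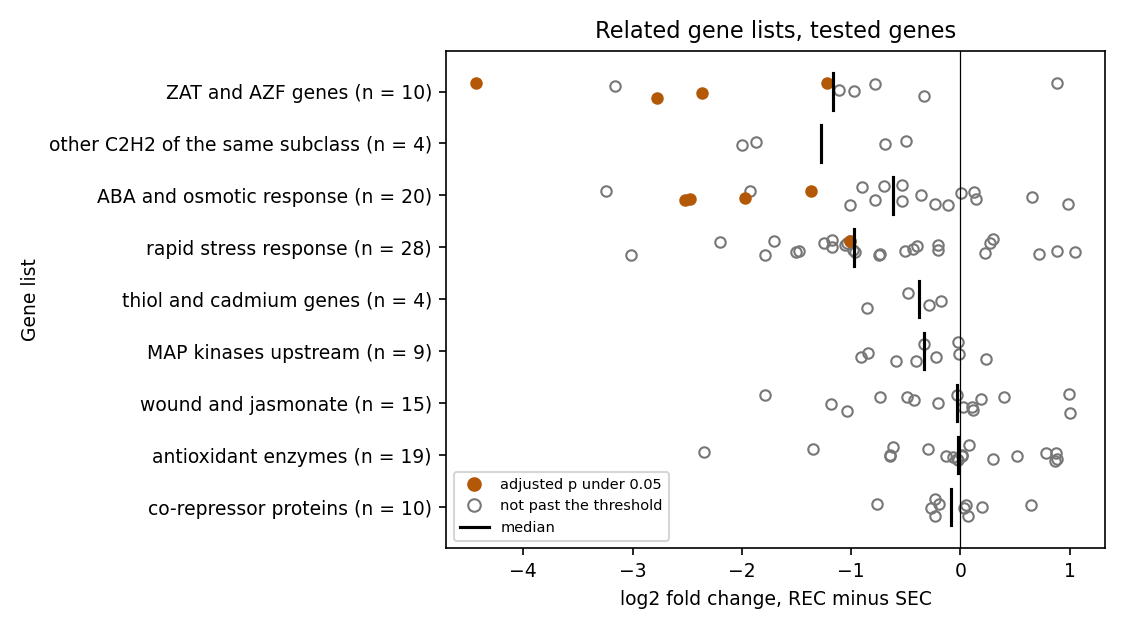
Log2 fold changes (REC minus SEC) of the tested genes of each list, filled orange where the adjusted p of edgeR is under 0.05, with a bar at the list's median. The ZAT and AZF genes have a median of −1.16, and the co-repressor, jasmonate and antioxidant lists have medians between −0.08 and −0.02.

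The 5 genes with a profile most like RHL41 were named by the smallest Euclidean distance between centred log2 CPM profiles over the 4 libraries, among 11573 other genes averaging at least 10 CPM. They were EXL4 (AT5G09440, EXORDIUM like 4) at a distance of 0.0314, AT5G50900 at 0.0358, XBAT34 at 0.0418, AT2G17280 at 0.0428 and GB2 at 0.0453. EXL4 had 326 and 319 CPM in the REC pair versus 587 and 515 CPM in the SEC pair, and it did not pass the test (adjusted p = 0.0747 by edgeR), but it did with the length trend removed (0.0140). With 4 libraries the measure rests on few values.

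Markers of other cell types were counted beside these results. Of 6 mesophyll markers, RBCS2B and CA1 were higher in RECs and 4 did not pass. RBCS2B had 206 and 126 CPM in the REC pair versus 3.71 and 5.46 CPM in the SEC pair. CA1 had 166 and 79.1 CPM (REC pair) versus 9.57 and 11.6 CPM (SEC pair). In 5 of the 6 both REC libraries lay above both SEC libraries, as in 29.8% of tested genes, and in 1 the groups overlapped. The summed level of the list was 5118 and 3836 CPM in the REC pair versus 3617 and 2999.5 CPM in the SEC pair. RBCS genes have near-identical copies, so the level of RBCS2B is uncertain. The sum was lower in both SEC libraries than in both REC libraries, and its part in the difference of the ZAT and AZF genes was not tested. Of the phloem markers SUC2, APL, SEOR1 and AHA3, APL was at 0 in every library and the sum was 12.2 and 15.5 CPM in the REC pair versus 3.32 and 1.93 CPM in the SEC pair. SUC2 had 9.26 and 9.34 CPM (REC pair) versus 3.32 and 0.514 CPM (SEC pair). Their part was not tested either. Xylem markers summed to between 0.926 and 3.47 CPM, with XCP2 at 0 in every library, and guard cell markers to between 2.93 and 6.74 CPM, with FAMA at 0. IRX3, a xylem marker, had 13 and 17 counts in the REC pair versus 0 and 15 in the SEC pair (adjusted p = 0.707 by edgeR). KAT1, a guard cell marker, had 10 and 40 counts (REC pair) versus 0 and 0 (SEC pair). Its log2 fold change of 7.61 (SE 1.79) did not pass by edgeR (adjusted p = 0.101) but did by DESeq2 (0.0176). SLAC1 overlapped between the groups, and the part of these markers was not tested. The pollen markers VGD1 and VGDH2 summed to at most 0.232 CPM. Of the 5 abscission zone markers, ADPG2 and IDA were higher in SECs and QRT2, HAE and HSL2 did not pass by edgeR. IDA had 6 and 13 counts in the REC pair versus 421 and 217 in the SEC pair. Limma voom called ADPG2 (adjusted p = 0.0262) but not IDA (0.113). With the length trend removed 1 of the list was called higher in RECs. HAE, an abscission receptor kinase, had 440 and 459 CPM in the REC pair versus 160.04 and 355 CPM in the SEC pair. ADPG2, a polygalacturonase of cell separation, had 22.8 and 21.9 CPM in the REC pair versus 147 and 171 CPM in the SEC pair.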

How the data were processed

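RNA from sorted protoplasts was copied to cDNA with SMART-Seq v4 (18 cycles) and made into TruSeq v2 libraries, a kit that does not mark strand, per the labels' protocols. Plants were kept at 22°C in a day of 16 h light. The authors deposited unnormalized gene counts, a file for each sample, and the submitters' processing notes name Trimmomatic 0.32.3, TopHat2 2.0.9, Picard 1.119, HTSeq 0.6.1, DESeq2 and TAIR10. For the counting step, annotation and strand setting are not given in those notes. Reads carry no molecular identifiers, so PCR copies count more than once. Sample titles gave the groups and replicate numbers. Genotype labels run from proQRT2 to proQRT5 over the samples, and the series description, which gives proQRT2 for all, was followed. The labels give no locus for ebp1, so its transcript was not used as a check.

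The closing lines of each file, which name no gene, stayed out of library sizes and tests; records in no gene made up from 46.8% to 47.7% of all records, those with more than one alignment from 5.64% to 7.48%, and those that fitted several genes from 0.367% to 0.438%. Same-group libraries differed by more than sampling noise (chi-square per degree of freedom 5.39 for RECs and 70.8 for SECs) and were kept as separate replicates. The test was that of edgeR 4.0.16 under R 4.3.3 (glmQLFit and glmQLFTest, TMM, filterByExpr, group as the only term, 2 residual degrees of freedom). Tests were two-sided, with Benjamini-Hochberg adjustment over 18384 genes and a threshold of 0.05. An SE was taken as |log2 fold change|/√F. Alternatives were DESeq2 1.42.0, limma voom 3.58.1, upper-quartile and RLE normalization, no filter, a loess trend on transcript length removed by offsets, a replicate block, and each library left out. The edgeR fit was also run on simulated counts with known changes. Those counts had the same spread setting in every library, without the wider spread of the SEC pair or a length trend. The run therefore does not show how the test behaves under these features.

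Names, lengths and sequences came from RefSeq TAIR10.1, matched by locus identifier; the files hold no coordinates. ZAT5, ZAT8 and ZAT18 are unnamed there and carry the names of the group's definition. All 10 members are named, with up to 4 called genes of each other list, or the 2 of smallest p where none was called. TPL, APX1, QRT2, HAE, HSL2, NCED3 and HAI1 were added after their values were seen. The members and lists were chosen with earlier results of these data known.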

Additional observations from a re-analysis of the deposited data

How the results depend on the processing

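The count of members higher in SECs, 4 in the edgeR fit, was 1 with upper-quartile normalization, 2 by limma voom, 7 by DESeq2 and 7 with the length trend removed; with each library left out in turn it ran from 1 to 8, and members higher in RECs from 0 to 1. It was 4 with RLE size factors and 6 with no filter. All these runs reuse the same 4 libraries and give no separate support. Leaving out a library could hardly reverse the direction of a member whose groups do not overlap. The direction of all 10 members held in every alternative run: of 110 values, 83 kept their side of the threshold, 9 lost it, 18 gained it and 0 reversed. Over all genes, calls higher in SECs and in RECs, 400 and 91, were 254 and 87 with upper-quartile normalization, 836 and 280 with no filter, 1700 and 847 with the length trend removed and 1503 and 716 by DESeq2. RECs took 18.5% of the calls in the edgeR fit, 33.3% with the length trend removed, 32.3% by DESeq2 and 31.2% with the replicate block. With a library left out they ran from 86 to 4991 in SECs and from 28 to 5630 in RECs, since the spread then comes from the REC pair or the SEC pair alone and the lone library is assumed to vary like that pair. With the replicate block there were 1161 and 526 calls, and 6 members were higher in SECs (6.3% of tested genes). The titles' numbers were not shown to pair the libraries (correlation of the within-group differences 0.04). Of other genes named or counted, log2 fold changes ran from −0.96 to 0.61 for XCP1 and from −0.40 to 1.45 for SLAC1 with 1 SEC library left out; neither was called. Depth limits ZAT7 and AZF1. The cause of the other changes was not tested.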
